A study of Mus musculus with 6 samples.

Results

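The dystrophin-sarcoglycan complex was followed through 8 genes taken by name from a count table of 54929 genes: Dmd, Utrn, Dtna, Dag1, Sgca, Sgcb, Sgcd and Sspn. All 8 were found and all 8 passed the filter on low counts. They were chosen by name with their read counts and log2 fold changes in these same libraries already known, so the difference between the antibodies is given as a description, with no p-value for a member, and the counts of members past a threshold are descriptive too. Left ventricles of wild-type (WT) C57BL/6 mice had been put under pressure overload by TAC, a surgical narrowing of the aorta. Both groups carry this operation. The control group of 3 libraries (anti-IgG) was given anti-IgG antibody and the other 3 libraries (anti-PD-1) come from mice given anti-PD-1 antibody, which binds a receptor that restrains T cells. Both antibodies were injected into the peritoneum at 10 mg/kg, at intervals of 3 days starting on day 14 after surgery. The time label of all 6 samples is 5 weeks. The labels name no unoperated or untreated group and give neither sex nor age, and whether each library is a different animal is not stated. Each p-value therefore reflects the spread among these 6 samples, which may be technical.

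The complex links the actin cytoskeleton of a muscle cell to the matrix around it. Dystrophin binds actin inside the cell and the transmembrane protein dystroglycan at the membrane, and dystroglycan holds laminin outside through sugar chains that other enzymes build. The sarcoglycans, which are membrane glycoproteins, and the small membrane protein sarcospan form a subcomplex that stabilises dystroglycan, while dystrobrevin and the syntrophins bind dystrophin from the cytoplasm and hold signalling proteins and channels there. Loss of dystrophin or of certain sarcoglycans causes muscular dystrophy, in some cases with cardiomyopathy. Utrophin, a close relative of dystrophin, can take its place in part.

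The members differ widely in length, which bears on their values here. In mm10 coordinates Dmd lies on chromosome X, 82948870 to 85206141, plus strand, and Utrn on chromosome 10, 12382188 to 12869365, minus strand. Dag1 lies on chromosome 9, 108204634 to 108263958, minus strand, and Sspn on chromosome 6, 145931641 to 145965223, plus strand. The sarcoglycan genes are on the minus strand: Sgca on chromosome 11, 94962791 to 94976327, Sgcb on chromosome 5, 73632749 to 73647790, and Sgcd on chromosome 11, 46896253 to 47988969. The authors' gene length, which their FPKM uses, is 23801 bp for Dmd, 17108 bp for Utrn, 16930 bp for Dtna, 8257 bp for Sgcd, 6357 bp for Dag1, 4996 bp for Sspn, 4052 bp for Sgcb and 1735 bp for Sgca. Other genes lie inside or across several of these spans, but none held more than 0.38% of the reads of the member it overlaps (Hils1, opposite to Sgca). Counts are per gene, so the several dystrophins made from internal starts of Dmd are not told apart.

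The promoters of Sgcd, the member that differed most between the groups, and of Sgca are shown, together with one of the Sspn starts. Each is given as the 250 bases before the RefSeq start (build GRCm38.p6, 5′ to 3′ on the gene's own strand). Sgca was the only member with a negative log2 fold change, but its groups overlapped and it did not pass the threshold given below. The Sgcd start used lies inside the gene span given above, away from the 5′ end of that span at 47988969. Capitals mark CANNTG, the E-box, and CATTCC, the M-CAT motif, searched on both strands.
Sgcd, chr11:47379326-47379575, minus strand: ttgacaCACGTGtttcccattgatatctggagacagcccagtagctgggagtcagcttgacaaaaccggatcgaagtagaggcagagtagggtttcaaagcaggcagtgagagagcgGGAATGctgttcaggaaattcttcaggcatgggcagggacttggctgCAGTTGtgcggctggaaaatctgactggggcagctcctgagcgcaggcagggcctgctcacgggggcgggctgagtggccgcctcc
Sgca, chr11:94976328-94976577, minus strand: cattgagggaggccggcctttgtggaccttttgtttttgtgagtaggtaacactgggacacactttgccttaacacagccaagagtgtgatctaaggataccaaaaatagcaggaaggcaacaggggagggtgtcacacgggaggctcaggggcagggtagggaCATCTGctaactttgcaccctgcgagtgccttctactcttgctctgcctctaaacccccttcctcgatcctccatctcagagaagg
Sspn, chr6:145933872-145934121, plus strand: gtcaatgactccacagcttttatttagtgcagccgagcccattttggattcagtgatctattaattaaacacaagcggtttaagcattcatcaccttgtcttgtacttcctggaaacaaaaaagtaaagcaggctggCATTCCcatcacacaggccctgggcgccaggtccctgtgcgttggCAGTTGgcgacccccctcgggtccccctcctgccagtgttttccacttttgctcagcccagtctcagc

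The RefSeq promoter table held 7 of the 8 members (not Dtna) with 10 windows. CATTCC was present in the window of Sgcd and in both windows of Sspn and in none of the other 7, while 12.6% of all 32851 windows of this length hold it. The E-box was present once in Sgca and 2 times in Sgcd, and 66.2% of all windows hold it. A MEF2 motif (2.92% of all windows) and an SRF motif (1.47%) were each found in 1 member window, that of the 5′-most Dmd start. GATAA, found in 22.6% of all windows, was in none of the 10. A match of letters is a description of the window and shows no binding.

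Levels were compared between members by the deposited FPKM (reads scaled to gene length and library size, as mean ± SD, n = 3). In the anti-IgG ventricles Sgca, the muscle-restricted alpha-sarcoglycan, was the most abundant member at 44.9 ± 5.74 FPKM. Dag1, the dystroglycan gene, followed at 31.3 ± 4.85, then Sspn (sarcospan) at 23.5 ± 6.72 and Sgcb (beta-sarcoglycan) at 21.1 ± 3.44. The libraries of Sspn overlapped those of Dag1 and those of Sgcb. Utrn stood at 5.36 ± 1.83, Dtna (alpha-dystrobrevin) at 3.26 ± 0.12 and Dmd at 2.94 ± 0.60, and the last 2 overlapped. Sgcd, delta-sarcoglycan, was the lowest at 0.815 ± 0.056 FPKM. In the anti-PD-1 ventricles the order was different: Dag1 was first at 63.0 ± 10.1 FPKM and Sspn next at 51.5 ± 7.86, with overlapping libraries, followed by Sgcb at 32.0 ± 3.41 and Sgca at 31.4 ± 10.7, which overlapped too. The highest Sgca library, at 42.97 FPKM, also lay just above the lowest Sspn library, at 42.83 FPKM. Utrn was at 9.56 ± 0.58, Dmd at 6.57 ± 0.89, Dtna at 5.29 ± 0.53 and Sgcd again lowest at 3.30 ± 0.50 FPKM. FPKM of a gene whose deposited length exceeds its main transcript understates it: the longest GENCODE transcript of Sgcd with coding and 3′ UTR sequence has 2450 bp, against the 8257 bp used. For Dtna it has 6295 bp against 16930 bp, for Dmd 14910 bp against 23801 bp and for Utrn 12382 bp against 17108 bp. The order of these low members therefore depends on the length used. With these transcript lengths Sgcd would still be last in the anti-IgG ventricles, but not in the anti-PD-1 ventricles.

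Between groups, levels are given as TMM-scaled CPM (a gene's share of the library's counts, with TMM as a scaling for library composition). A positive log2 fold change, from edgeR with its standard error (SE), is higher with anti-PD-1. The sarcoglycans did not move together. Sgcd had 6.97, 7.89 and 6.86 CPM in anti-IgG libraries 1 to 3 and 29.2, 33.5 and 24.0 CPM in anti-PD-1 libraries 1 to 3. Every anti-PD-1 library was thus above 3 times the highest control library, and the groups were far apart relative to their spread (7.24 ± 0.56 against 28.9 ± 4.77 CPM). The log2 fold change was 2.00 (SE 0.20), which put Sgcd at percentile 99.5 of the fold changes of all tested genes. The reads behind it were 136 to 141 per anti-IgG library and 499 to 625 per anti-PD-1 library.

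Sgcb, which assembles with delta-sarcoglycan as the core of the sarcoglycan tetramer, had 107.5, 80.0 and 87.7 CPM with anti-IgG and 150.5, 140.1 and 120.7 CPM with anti-PD-1. The groups did not overlap, and the log2 fold change was 0.58 (SE 0.19). Sgca went the other way, with 71.97, 85.81 and 93.59 CPM in the control libraries and 39.9, 80.3 and 53.0 CPM with anti-PD-1. Here the groups overlapped, because anti-PD-1 library 2 stood above anti-IgG library 1, and the log2 fold change was -0.54 (SE 0.24). It was -0.83 without anti-PD-1 library 2 and -0.32 without anti-PD-1 library 1. Sgce, epsilon-sarcoglycan, a relative of alpha-sarcoglycan in other cells, was at -0.43 (SE 0.20, edgeR adjusted p = 0.145). It was past the threshold as lower after correction for gene length, described below (-0.80, adjusted p = 0.0331 by edgeR), and at -0.02 after that for transcript length.

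Sspn, whose product sits with the sarcoglycans in the membrane, had 159.8, 90.1 and 128.6 CPM with anti-IgG and 305.2, 287.8 and 223.4 CPM with anti-PD-1. The lowest treated library was 223.4 against 159.8 CPM in the highest control, and the log2 fold change was 1.11 (SE 0.24). Dag1, which encodes both the alpha and beta chains of dystroglycan, had 228.0, 177.3 and 234.8 CPM with anti-IgG and 440.3, 489.2 and 343.7 CPM with anti-PD-1. Its groups were also apart, with a log2 fold change of 0.99 (SE 0.21).

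Dmd had 91.6, 71.2 and 62.6 CPM in the control libraries and 150.1, 194.8 and 151.9 CPM with anti-PD-1. No control library came near the treated ones, and the log2 fold change was 1.14 (SE 0.21). Utrn had 136.0, 76.8 and 82.5 CPM with anti-IgG and 159.8, 183.5 and 175.4 CPM with anti-PD-1, with a log2 fold change of 0.81 (SE 0.23). Anti-IgG library 1 was well above the other 2 controls for this gene, and the groups were still apart (159.8 against 136.0 CPM at the nearest). Dtna had 61.1, 57.9 and 59.1 CPM with anti-IgG, the tightest control group of all 8 relative to its mean, and 89.7, 107.5 and 87.0 CPM with anti-PD-1 (log2 fold change 0.67, SE 0.17).

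**Figure D1:**
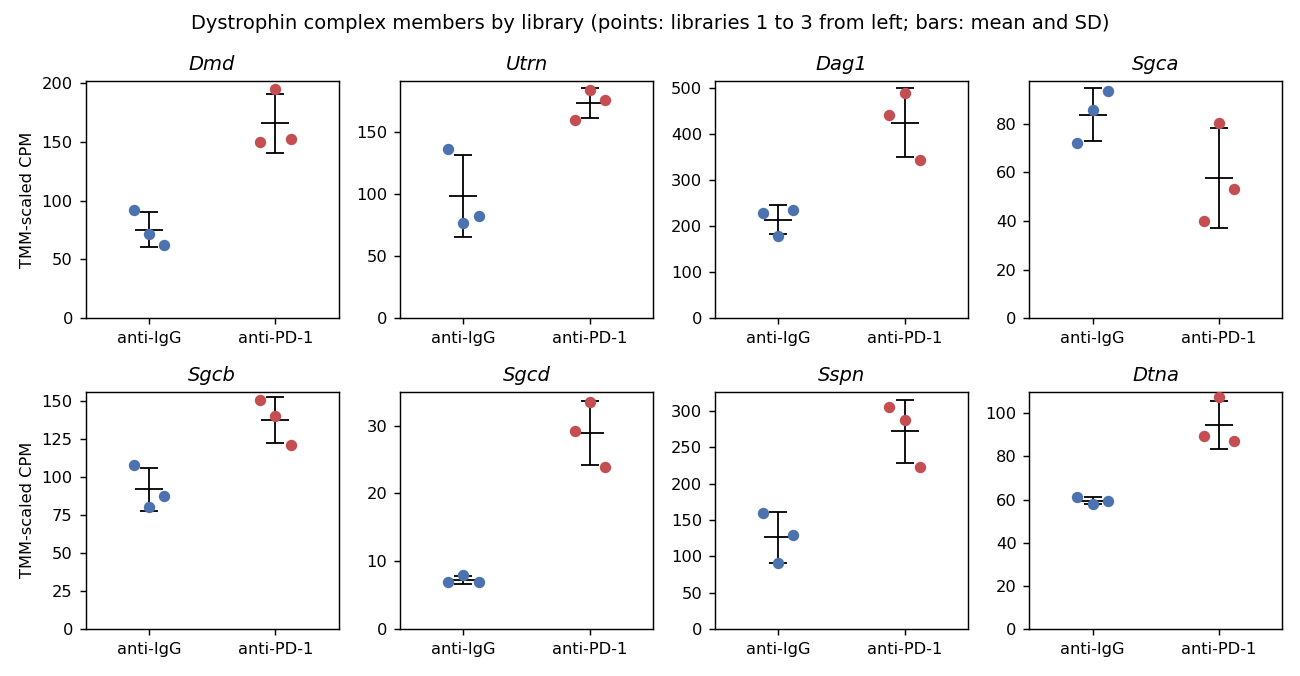
TMM-scaled CPM of the 8 members in each library, with anti-IgG in blue and anti-PD-1 in red; points are libraries 1 to 3 from left to right, and bars give the mean and SD of 3 libraries. Groups are apart in every panel except that of Sgca, where anti-PD-1 library 2 (80.3 CPM) lies among the controls, and the separation is widest for Sgcd.

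In all, 7 of the 8 members were higher with anti-PD-1 past the threshold of the fit over all genes (edgeR's quasi-likelihood test with Benjamini-Hochberg adjusted p under 0.05), 0 were lower, and Sgca did not pass. Over all 14807 tested genes 10.3% were higher and 10.8% lower by this rule. The same 7 members had no overlap between groups, all in the upward direction, which held for 20.2% of tested genes upward and 20.8% downward (41.0% in all). The median log2 fold change was 0.90 over the members and -0.03 over all tested genes. Because the members were picked with this contrast in view, nothing is read from these counts. The count moved with single libraries. It was 2 (Dmd and Sgcd) when anti-IgG library 2 was left out and 4 when anti-IgG library 3 was. It was also 4 when anti-PD-1 library 1 was left out. Leaving out anti-PD-1 library 3 gave 5. Over all tested genes the count fell too in these fits, from 3118 to 532, 1564, 969 and 1766 in the same order. Sgcd kept a log2 fold change of 1.90 to 2.12 and Dmd of 1.02 to 1.31 whichever library was left out, and these 2 passed each time. Utrn (0.64 to 1.12) and Sgcb (0.47 to 0.71) each passed in 1 of the 6 such fits, Dtna (0.59 to 0.74) in 3, and Dag1 (0.85 to 1.13) and Sspn (0.90 to 1.32) in 5. Upper quartile scaling moved the median of all tested genes to -0.12 and the share of called genes that were higher from 48.9% to 36.8%; every member kept its direction and 6 of them passed, with Sgcb at 0.49.

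Ratios of FPKM within a library do not depend on how libraries were scaled to each other, but they do carry the trend with gene length described below. The ratio of Sgcd to Sgca was 0.0203, 0.0193 and 0.0154 in anti-IgG libraries 1 to 3 and 0.154, 0.0876 and 0.0950 in anti-PD-1 libraries 1 to 3, a ratio of means of 6.11. Sgcb to Sgca was 0.480 ± 0.138 in the controls and 1.11 ± 0.45 with anti-PD-1, and Sgcd to Sgcb 0.0395 ± 0.0083 and 0.103 ± 0.012, in each case without overlap between groups. Taken from the edgeR log2 fold changes, the change in Sgcd to Sgca was 5.79-fold without correction, 3.35-fold after correction for gene length and 5.10-fold after that for transcript length. For Sgcb to Sgca these folds were 2.17, 1.56 and 1.44, and for Sgcd to Sgcb 2.67, 2.15 and 3.55. By contrast, the ratio of Dmd to its relative Utrn was 0.565 ± 0.093 in the controls and 0.687 ± 0.071 with anti-PD-1, and the groups overlapped. Dag1 to Dmd also overlapped, at 10.9 ± 2.73 and 9.62 ± 1.27. Dtna to Dmd was lower with anti-PD-1, at 0.807 ± 0.032 against 1.14 ± 0.19, and its fold from edgeR went from 0.724 without correction to 1.02 after correction for transcript length.

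The summed FPKM of the 8 members was 142.7, 116.9 and 140.0 in the controls and 204.7, 227.1 and 176.0 with anti-PD-1. Of that sum, Sgca made up 34.1 ± 6.07% in the controls and 15.4 ± 4.24% in the anti-PD-1 libraries. Dag1 made up 23.4 ± 1.33% and 31.0 ± 1.45%, and Sspn 17.5 ± 3.43% and 25.4 ± 2.62%. Sgcb kept nearly the same share, 15.8 ± 1.52% and 15.9 ± 1.60%, and so did Dtna, 2.46 ± 0.20% and 2.62 ± 0.17%. Sgcd went from 0.620 ± 0.114% to 1.63 ± 0.04%. Like the ratios, these shares carry the trend with gene length described below, where Sgca, the shortest member, lay on the median of its length bin.

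**Figure D2:**
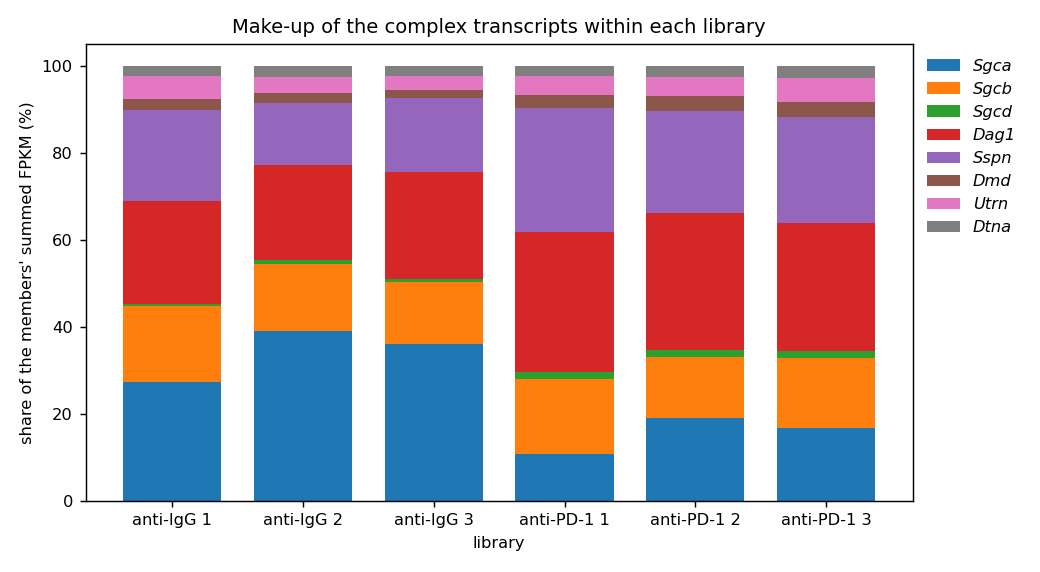
Share of each member in the summed FPKM of the 8 members (y axis, percent), as 1 stacked bar per library. Sgca (bottom, blue) takes 27.3 to 39.0% of the bar in the 3 anti-IgG libraries and 10.7 to 18.9% in the 3 anti-PD-1 libraries, while Dag1 and Sspn take more. The shares are not corrected for the trend with gene length.

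Gene length ran with the fold change across the whole table. Across the 14807 tested genes, which share the same 6 libraries, their Spearman rank correlation was 0.49. With the genes in 10 bins of equal size by length, the bin of Sgca (1408 to 2150 bp) had a median log2 fold change of -0.53, and Sgca at -0.54 lay on it. In the bin of the longest genes (9594 to 123179 bp), with Dmd, Utrn and Dtna, the median was 0.45. The bins of Sgcb, Sspn, Dag1 and Sgcd had medians of -0.05, 0.11, 0.21 and 0.32, all below those members.

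**Figure D3:**
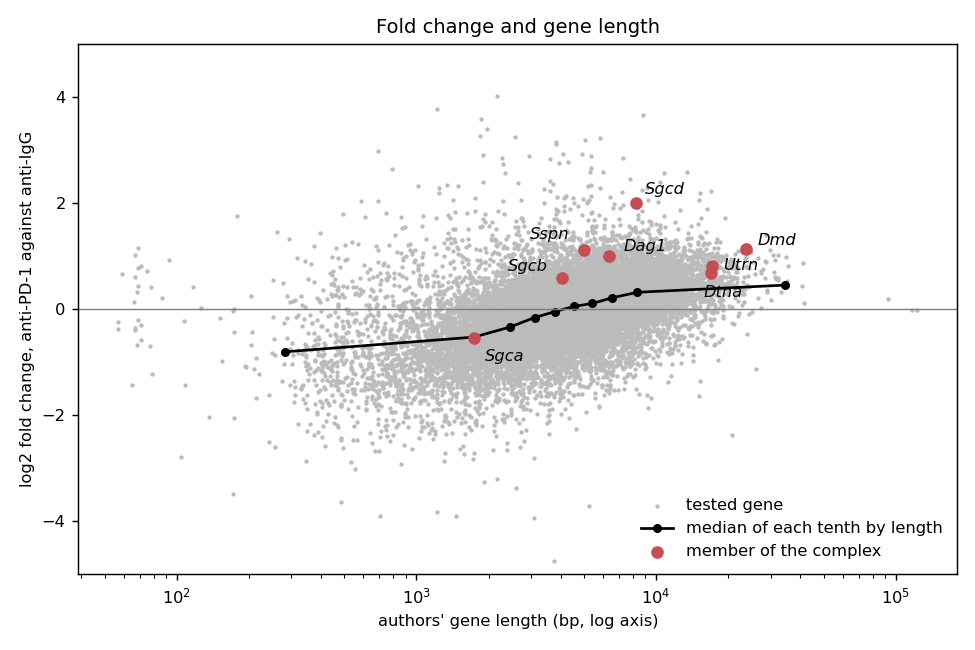
Log2 fold change of anti-PD-1 against anti-IgG (y axis) by the authors' gene length (x axis, bp, logarithmic) for all tested genes in grey, 1 of them beyond the y range, with the median of each of 10 length bins in black and the 8 members in red. Sgca (-0.54) lies on the black line, and Sgcd (2.00) lies farthest from it among the members.

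Removing each library's trend with the authors' gene length left Sgcd at 1.71 (SE 0.20), Sspn at 1.05 (SE 0.24), Dag1 at 0.82 (SE 0.21) and Dmd at 0.62 (SE 0.17), and these 4 members were past the threshold, all 4 higher, beside 5.17% of all tested genes higher and 5.13% lower (10.3% in all). Sgcb was at 0.60 (SE 0.19), Utrn at 0.35 (SE 0.20), Dtna at 0.18 (SE 0.17) and Sgca at -0.03 (SE 0.21). With the trend on coding and 3′ UTR length removed instead, 2 members passed, Sgcd at 2.24 (SE 0.21) and Sspn at 1.23 (SE 0.24), both higher, beside 2.92% of all tested genes higher and 2.70% lower (5.62% in all). There Dag1 was at 0.50 (SE 0.21), Sgcb at 0.41 (SE 0.17), Dtna at 0.18 (SE 0.17), Dmd at 0.16 (SE 0.17), Utrn at 0.03 (SE 0.20) and Sgca at -0.11 (SE 0.21). Thus the values of Dmd, Utrn and Dtna, the 3 longest members, and of Sgca, the shortest, were the ones that moved most towards 0 in proportion, and Sgcd and Sspn stayed at or above 1 in both corrections. The transcript used for Sgcd in the second correction has 576 bp of coding sequence, against 867 bp in its longest annotated coding sequence, and that of Sspn 420 bp against 648 bp.

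**Figure D4:**
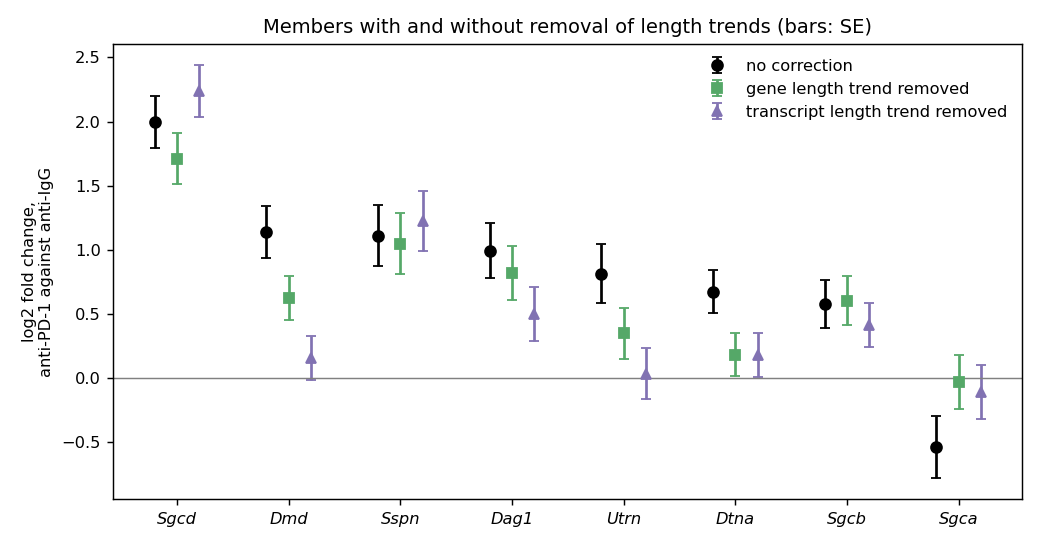
Log2 fold change (y axis; bars, SE) of each member without correction (black circles), with the gene length trend removed (green squares) and with the transcript length trend removed (violet triangles). Sgcd stays between 1.71 and 2.24 and Sspn between 1.05 and 1.23, while Dmd goes from 1.14 to 0.16 and Sgca from -0.54 to near 0.

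The other genes of the pathway were read from 5 lists of 66 genes put together by role, with earlier results of these data known, of which 59 were tested. Of these 15 rose, 3 fell and 41 did not pass, which is 30.5% called beside 21.1% of all tested genes, with a median log2 fold change of 0.33. With the gene length trend removed 4 were higher and 3 lower, or 11.9% beside 10.3% of all tested genes. After correction for transcript length 3 were higher and 1 lower, or 6.78% beside 5.62%. Both shares were thus close to the background. In place of 18 called genes there were 5 when anti-IgG library 2 was dropped, 9 when anti-IgG library 3 was and 8 when anti-PD-1 library 1 was. Over all tested genes the same fits called 532, 1564 and 969 in place of 3118. Dpm2, Dpm3, Lama2 and Vcl were among those that passed whichever library was left out.

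Of 9 tested dystrophin-associated partners (12 listed), Sntb2 rose, Cav3 fell and 7 did not pass. That is 22.2% called beside 21.1% of all tested genes. Sntb2, a beta-syntrophin that binds dystrophin and dystrobrevin, went from 41.9 ± 2.58 to 61.6 ± 5.57 CPM (0.56 on the log2 scale, SE 0.16; adjusted p = 0.0358 by edgeR). Cav3, the muscle caveolin, went from 45.1 ± 11.4 to 25.3 ± 8.03 CPM (-0.83, SE 0.26; adjusted p = 0.0457 by edgeR). Both calls ended with either length trend removed, where Sntb2 was at 0.19 and 0.03 and Cav3 at -0.17 and -0.04, and each held in only 2 of the 6 fits that left out a library (edgeR adjusted p up to 0.140 and 0.152). Nos1, the neuronal nitric oxide synthase that syntrophin holds at the membrane, was at 1.13 (SE 0.67, edgeR adjusted p = 0.245), with means of 0.359 and 0.801 CPM.

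Of 17 tested genes of dystroglycan glycosylation (18 listed), 4 rose, 2 fell and 11 did not pass (35.3% called beside 21.1% of all tested genes). Among those that rose, Ispd, which makes the donor of ribitol phosphate for the laminin-binding sugar chain, was at 0.87 and B3galnt2, an earlier transferase of the pathway, at 0.55 (edgeR adjusted p = 0.0368 and 0.0446). The falls were those of Dpm2, from 15.7 ± 4.46 to 5.88 ± 0.24 CPM (-1.41, SE 0.25), and Dpm3, from 6.83 ± 2.21 to 1.66 ± 0.38 CPM (-2.04, SE 0.34), with adjusted p of 0.00744 and 0.00640 by edgeR. Both encode small subunits of the enzyme that supplies mannose for this and other glycosylation, and both genes are short, with 1971 and 919 bp. Without the gene length trend Dpm2 (-0.95) and Dpm3 (-1.27) stayed past the threshold, and Ispd (0.59) and B3galnt2 (0.38) did not (edgeR adjusted p = 0.139 and 0.166). None of these 4 passed after correction for transcript length (adjusted p from 0.0538 to 0.224 by edgeR). Of the 6 fits that left out a library, Ispd passed in 1 (edgeR adjusted p up to 0.145) and B3galnt2 in none.

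Among 10 matrix ligands of dystroglycan, all tested, 2 rose and 8 did not pass, or 20.0% called beside 21.1% of all tested genes. Lama2, the laminin chain of the muscle basement membrane that dystroglycan binds, had 81.8, 64.2 and 80.2 CPM with anti-IgG and 157.3, 194.8 and 176.9 CPM with anti-PD-1. The groups were well apart (log2 fold change 1.22, SE 0.19; adjusted p = 0.00504 by edgeR). It stayed past the threshold with either length trend removed, at 0.74 and 1.06 (edgeR adjusted p = 0.0340 and 0.0131). Hspg2 (perlecan), another basement membrane ligand, rose from 556.6 ± 48.0 to 868.6 ± 82.9 CPM, by 0.64 (SE 0.20, edgeR adjusted p = 0.0446), and that call ended with either trend removed (0.18 and 0.02) and without any 1 library (edgeR adjusted p from 0.0509 to 0.158). Agrn (agrin) was at -0.14 (SE 0.17) and was past the threshold as lower after correction for transcript length (-0.62, edgeR adjusted p = 0.0434).

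Of 16 tested genes of the costamere and of membrane repair (18 listed), 5 rose, 0 fell and 11 did not pass. The share called was 31.2%, beside 21.1% of all tested genes. Vcl (vinculin), which couples actin to integrin adhesions at the same sites of the membrane as dystrophin, had 31.9, 17.6 and 34.8 CPM with anti-IgG and 88.0, 78.3 and 81.1 CPM with anti-PD-1. Its log2 fold change was 1.55 (SE 0.24; adjusted p = 0.00508 by edgeR). It was 1.26 after correction for gene length and 1.09 for transcript length (adjusted p = 0.0149 and 0.0282 by edgeR). Tln2 (talin 2, 1.01), Ank3 (ankyrin-G, which anchors dystrophin, 0.99), Plec (plectin, a linker to desmin filaments, 0.78) and Ahnak (0.91) also rose (edgeR adjusted p from 0.0107 to 0.0431), and these 4 calls ended with either trend removed. Without anti-IgG library 2 the 4 did not pass (edgeR adjusted p from 0.0620 to 0.134). Of the 6 fits that left out a library, Tln2 and Ank3 each passed in 5, Ahnak in 2 and Plec in 1. Dysf (dysferlin, of membrane repair) at 0.21 (SE 0.19), Itga7 (the muscle laminin integrin) at 0.20 (SE 0.18) and Des (desmin) at -0.22 (SE 0.26) did not pass. Ilk, listed here too, had only 78 reads in all 6 libraries, and 55.8% of its span lies across Taf10 on the opposite strand, so its count is uncertain.

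Of 7 tested channels and pumps bound through syntrophins (8 listed), 3 rose and 4 did not pass (42.9% called beside 21.1% of all tested genes). Among those that rose, Kcnj12, an inward rectifier potassium channel, went from 7.04 ± 1.80 to 17.4 ± 3.45 CPM, by 1.30 (SE 0.25, edgeR adjusted p = 0.00899). Kcnj12 kept its call with either length trend removed (edgeR adjusted p = 0.00914 and 0.0134), but not without anti-IgG library 2 (1.08, edgeR adjusted p = 0.0502). Atp2b4, a plasma membrane calcium pump, was at 0.61 (SE 0.18, edgeR adjusted p = 0.0358), passed in 0 of the 6 fits that left out a library (0.0502 to 0.0995), and turned to -0.20 with the transcript length trend removed.

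**Figure D5:**
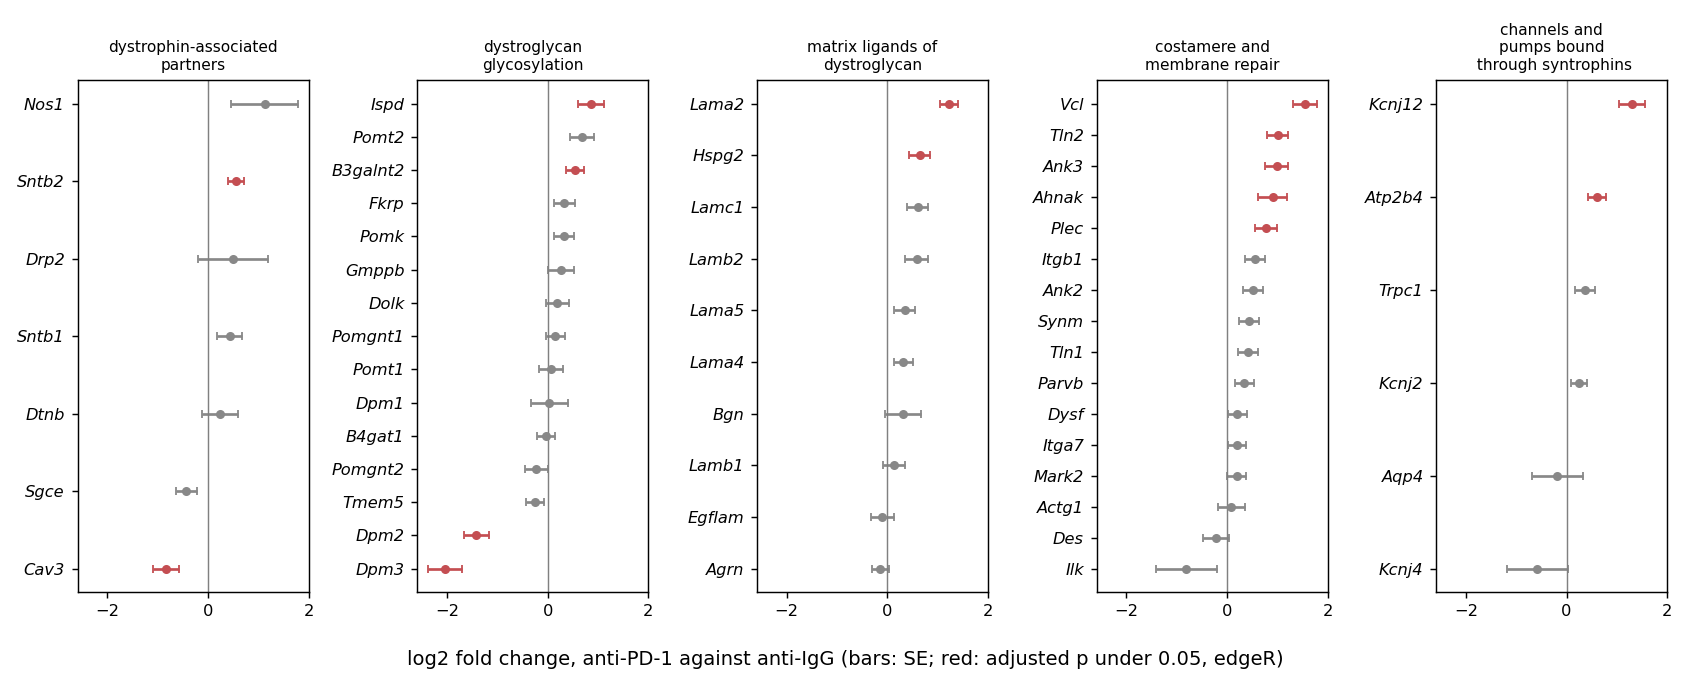
Log2 fold change of anti-PD-1 against anti-IgG (x axis; bars, SE) for 54 of the 59 tested genes of the 5 pathway lists, 1 panel per list, with genes past the threshold in red (edgeR adjusted p under 0.05). The 3 genes that fell are Cav3, Dpm2 and Dpm3, and the farthest to the right of those drawn is Vcl.

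Genes with a library profile like that of a member were found by the root-mean-square difference of log2 CPM, each centred on its mean over the 6 libraries, among 11481 genes. Nearest to Dmd were Nebl (0.09), Zbtb20 (0.09), Usf3 (0.11), Ash1l (0.11) and Usp32 (0.11), and nearest to Sgcd were Garem1 (0.16), Gucy1a2 (0.17), Clec16a (0.26), Sik2 (0.27) and Prepl (0.27). These profiles include the difference between the groups and were not corrected for the trend with gene length. The genes nearest to Dmd had log2 fold changes of 1.02 to 1.17 and lengths of 7680 to 30730 bp. Those nearest to Sgcd had 1.59 to 1.97 and 3830 to 9539 bp. Within the complex the closest pairs were Dtna with Sgcb (0.16), Dag1 with Sspn (0.17) and Dmd with Utrn (0.21). The members were not each other's nearest genes: 230 other genes lay closer to Dmd than Utrn did.

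The 6 libraries held 18063344 to 21093163 counted reads. In whole-ventricle RNA, fewer cells of a type and less RNA per cell cannot be told apart. All 8 cardiomyocyte markers were tested, with 1 higher (Ryr2, 1.39) and 3 lower (Tnnt2, Tnni3 and Myl2), and their summed level was 28830 to 36190 CPM with anti-IgG and 18690 to 32530 CPM with anti-PD-1. Summed levels also overlapped between groups for 7 fibroblast markers (1469 to 2246 and 1660 to 2805 CPM), 7 endothelial markers (1476 to 1558 and 1261 to 1579) and 8 pericyte and smooth muscle markers (1993 to 2492 and 2350 to 2654), cells in which utrophin, sarcospan and several sarcoglycans are also made. The macrophage and leukocyte sum was 270.7 to 504.9 and 285.1 to 313.1 CPM, and the Schwann cell sum 12.8 to 21.7 and 12.4 to 14.7 CPM. None of 7 skeletal muscle markers passed the filter on low counts, at a sum of 1.33 to 3.06 with anti-IgG and 0.150 to 0.480 CPM with anti-PD-1, with Myh1, Myh2 and Myh4 at 3 or fewer reads in all. Single markers were past the threshold within these lists: Vwf (1.14) higher and Egfl7 (-1.90) lower among the endothelial, Kcnj8 (-0.64) lower among the pericyte, Adgre1 (0.97) higher and C1qa (-1.56) lower among the macrophage and Sox10 (-1.34) lower among the Schwann cell markers, and none of the fibroblast markers. These marker values were not corrected for the trend with gene length. The part of cell make-up in the members' values was not tested.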

How the data were processed

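The authors deposited raw counts per gene and FPKM values for the same 6 libraries; per the submitters' processing notes the counter was featureCounts and the build mm10, with no version given. Aligner and strand setting: not given in the sources used here. Each deposited FPKM is a count over the authors' length for that gene and over 1 constant per library, 0.953 to 1.15 times its summed counts. Counts were tested with edgeR 4.0.16 (R 4.3.3): filterByExpr, TMM, quasi-likelihood F test with robust=TRUE, 2-sided, Benjamini-Hochberg over 14807 genes, threshold 0.05. SE is the log2 fold change divided by the square root of F. Length corrections used offsets: the trend of log2 CPM with length within each library (prior count 2, natural splines, 5 degrees of freedom); GENCODE M21 gave coding and 3′ UTR lengths for 88.4% of tested genes, and the rest were left uncorrected. Other settings were RLE and upper quartile scaling, other count filters, DESeq2 1.42.0, limma 3.58.1 (voom, and trend on log2 FPKM), the replicate block, and each library left out. The members and lists were chosen with earlier results of these data known. Named beyond the members are the genes of each list that passed or had the 2 smallest p, and the 5 genes nearest to Dmd and Sgcd; others were chosen after their values were seen. Some genes of the lists are counted but not reported here by name.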

Additional observations from a re-analysis of the deposited data

How the results depend on the processing

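The number of genes past the threshold, 3118, was 1526 with the gene length trend removed and 832 with the transcript length trend removed, and 532 to 3646 when 1 library was left out. Of the 8 members of the complex 7 were past it; 4 were with the gene length trend removed, 2 with the transcript length trend removed, and 2 to 7 without 1 library. Of the companion genes 18 passed, against 7 and 4 with those trends removed and 5 to 16 without 1 library. Without anti-PD-1 library 2, Sgca passed as lower. Atp2b4 turned from 0.61 to -0.20 with the transcript length trend removed. On log2(FPKM + 1), which understates changes of low genes, Sgcd was at 1.24. Every member kept its direction in all 19 alternatives. With the replicate block, which pairs libraries by number, 3367 genes, 7 members and 17 companion genes passed. The deviations of same-numbered libraries correlated at 0.12, -0.14 and 0.21, and those of differently numbered libraries at -0.34 to 0.20. Anti-PD-1 libraries 1 and 3 and anti-IgG library 3 correlated best with their own number, and the other 3 libraries did not. With 3 libraries per group this cannot decide whether the numbers mark pairs. RLE scaling, the count filters, DESeq2, limma-voom and robust=FALSE left all 3 counts within 1.5 times.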
